A study of Mus musculus with 7 samples.

Results

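Oligodendrocytes of ventral origin were compared with oligodendrocytes of dorsal origin in control mice, cell cluster by cell cluster and summed over clusters. The cells were those that the authors' deposited annotation places in MFOLb (myelin-forming oligodendrocytes) or in the mature clusters MOL1, MOL2a, MOL2b and MOL5/6a to MOL5/6d. There were 5646 such cells in the 2 control libraries, 788 from control ventral cells (control vOLCs) and 4858 from control dorsal cells (control dOLCs), of 9291 cells kept over the 3 single-cell libraries of the series. Each side was therefore 1 library, so the values below are descriptions with no test between mice.

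Both control groups came from Emx1-Cre mice at postnatal day 90 (11 to 14 weeks) that carry the Sox10-loxP-eGFP-polyA-STOP-loxP-tdTomato transgene (Emx/Tom), on a mixed C57BL/6-B6CBA background. In these mice a cell that expresses Sox10 is green unless Emx1-Cre has removed the stop cassette, after which it is red. Emx1 is expressed in the dorsal (pallial) progenitors of the forebrain. The control dOLCs were sorted as tdTomato-positive cells and the control vOLCs as GFP-positive cells, so origin here means the reporter colour, and a dorsal cell in which the Cre did not act would be sorted as ventral. The remaining library, ectopic vOLCs, held GFP-positive cells of mice that also carry a Sox10-driven diphtheria toxin A allele (Emx/Tom/DTA), in which the recombined cells are ablated. Per the methods, 4 Emx/Tom mice and 2 Emx/Tom/DTA mice were used. The files do not separate the mice pooled in a library, and whether both control libraries came from the same mice is not stated in the sources used here.

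The forebrain produces oligodendrocytes in successive waves, first from ventral (subpallial) progenitors and later from the dorsal pallium, and both kinds persist side by side in the adult cortex and corpus callosum. Oligodendrocyte progenitors (OPCs) become myelin-forming cells and then mature oligodendrocytes, which are grouped by marker genes: MOL5/6 cells express Ptgds, Il33 and Apod, and MOL2 cells express Klk6 and Hopx. Patterning genes such as Emx1 in the pallium or Nkx2-1 in the subpallium mark the progenitors, and most of them are switched off long before a cell myelinates.

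As a whole the cells carried the genes of their label, with an exception in MFOLb given below. The 14 oligodendrocyte identity genes all passed the filter on low values (50 or more UMIs, unique molecular identifiers that each stand for 1 captured RNA, over both libraries, and detection in 10% or more of the cells of either library). Summed, they stood at 68640 CPM (the UMIs of a gene per 1000000 UMIs of the summed cells) in control dOLCs and 76190 CPM in control vOLCs. Cnp, a myelin enzyme of noncompact myelin, was at 6204 CPM in control dOLCs and 6359 CPM in control vOLCs. Sox10, the transcription factor whose locus drives the reporter, was at 483.1 and 376.4 CPM, and Polr2f, its neighbour, at 198.2 and 264.4 CPM. Emx1 had 2 UMIs in control dOLCs and 0 UMIs in control vOLCs, so the Cre driver's own gene did not tell the libraries apart in mature cells. Xist was at 1013 and 855.5 CPM, and the Y-linked genes Ddx3y, Eif2s3y, Kdm5d and Uty had 0 UMIs in both, which allows up to 0.151 CPM in control dOLCs and 0.689 CPM in control vOLCs (3 UMIs), although mice of both sexes were used in the study.

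Markers of other cells were low in both libraries beside the oligodendrocyte genes. The 10 neuron markers summed to 32.8 CPM in control dOLCs and 20.0 CPM in control vOLCs, the 10 microglia markers to 34.8 and 37.9 CPM, and the 10 endothelial and mural markers to 5.13 and 6.89 CPM. The defining microglial gene C1qa had 15 UMIs in control dOLCs and 2 UMIs in control vOLCs, and the pericyte gene Pdgfrb 16 and 0. The 10 astrocyte markers summed to 611.8 CPM in control dOLCs and 481.1 CPM in control vOLCs, a log2 ratio of -0.35, and their highest level in both libraries was in MFOLb (7186 and 8552 CPM, beside oligodendrocyte identity genes at 57250 and 54350 CPM). In MFOLb of control dOLCs the astrocyte markers had 3590 of their 12169 UMIs in all oligodendrocytes, so this cluster stood apart from the others. Without MFOLb, 151 genes were at least 1.5 times higher and 47 lower in control vOLCs, beside 150 and 46 with it, and the median of the astrocyte markers past the filter was -0.32 in place of -0.42.

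The genes with the largest excess in control vOLCs were mostly short genes whose sequence is almost that of another gene. Of the 12 genes with the highest log2 ratio of control vOLCs to control dOLCs, 10 had a near copy or no entry under their symbol in the annotation, and 10 passed the filter through the control vOLCs alone. A near copy here is another annotated gene that matches the last 600 bases of a transcript at 97% identity or more over at least 100 bases. The coding sequences of such pairs can differ at a few bases only, as the 3 pairs below show. Each stretch is 90 bases of the coding sequence, read 5′ to 3′ on the gene's strand from the GENCODE M21 transcripts (build GRCm38), and capitals mark the bases at which the pair differs.
Rpl9: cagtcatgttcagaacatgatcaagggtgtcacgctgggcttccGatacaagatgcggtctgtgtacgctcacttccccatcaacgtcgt
Rpl9-ps6: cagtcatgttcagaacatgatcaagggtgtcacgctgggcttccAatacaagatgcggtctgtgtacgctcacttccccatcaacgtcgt
Rpl13: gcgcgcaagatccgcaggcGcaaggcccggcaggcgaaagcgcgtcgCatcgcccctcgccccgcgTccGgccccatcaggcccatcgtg
Rpl13-ps3: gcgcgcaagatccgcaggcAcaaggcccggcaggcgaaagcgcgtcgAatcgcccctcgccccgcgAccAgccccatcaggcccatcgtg
Rps26: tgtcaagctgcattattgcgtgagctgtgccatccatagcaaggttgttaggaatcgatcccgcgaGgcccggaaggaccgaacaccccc
Rps26-ps1: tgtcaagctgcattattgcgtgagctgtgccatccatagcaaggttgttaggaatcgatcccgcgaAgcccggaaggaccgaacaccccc

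Rpl9 lies at chr5:65388364-65391444 on the minus strand and Rpl9-ps6 at chr19:32465865-32466578 on the minus strand, and their coding sequences differ at 1 of 576 aligned bases. Rpl13 lies at chr8:123102350-123105244 on the plus strand and Rpl13-ps3 at chr14:58893506-58894129 on the plus strand, with 12 of 442 aligned bases differing. Rps26 lies at chr10:128624534-128626747 on the minus strand and Rps26-ps1 at chr8:107439131-107439579 on the minus strand, with 2 of 345 aligned bases differing. The annotation calls Rpl13-ps3 a processed pseudogene, Rps26-ps1 a transcribed processed pseudogene and Rpl9-ps6, despite its symbol, protein coding.

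In each pair the copy was higher in control vOLCs, while its parent, a component of the ribosome, was lower in the sums and nearer 0 once clusters were weighted alike. Rpl9-ps6 had 481 UMIs (24.2 CPM) in control dOLCs and 348 UMIs (79.9 CPM) in control vOLCs, a log2 ratio of 1.72 (95% interval 1.52 to 1.93), against 13952 and 2292 UMIs and a log2 ratio of -0.42 for Rpl9. These intervals are conditional exact binomial intervals and cover counting error only. Rpl13-ps3 went from 708 UMIs to 520 UMIs, a log2 ratio of 1.75 (1.58 to 1.91), against -0.34 for Rpl13. Rps26-ps1 went from 1023 to 519 UMIs, a log2 ratio of 1.21, against -0.25 for Rps26. The share of the pair's UMIs given to the copy was 3.33% in control dOLCs and 13.2% in control vOLCs for Rpl9-ps6, 2.86% and 11.1% for Rpl13-ps3, and 12.5% and 28.2% for Rps26-ps1. With each cluster given the same weight in both libraries (standardisation), the log2 ratio was -0.09 for Rpl9, -0.16 for Rpl13 and 0.08 for Rps26, and 2.02 for Rpl9-ps6, 1.89 for Rpl13-ps3 and 1.59 for Rps26-ps1. Reads of near-identical genes can be split between them in counting, so the level of any single member is uncertain.

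The same held across the annotated pseudogenes. All 18 that passed the filter were above 0, from 0.11 to 2.01, with a median log2 ratio of 1.34, and 15 of them were at least 1.5 times higher in control vOLCs, where 2.75% of all 5460 genes tested were. Of the 18, 7 passed the filter through the control vOLCs alone, a side of the filter that favours genes higher there (65 of all 872 such genes, 7.45%, were past the fold). The other 11 were detected in 10% or more of the cells in both libraries, and 8 of these were past a fold of 1.5. When genes were instead chosen on the control dOLCs alone (at least 50 UMIs there), 24 of 25 pseudogenes were above 0 with a median of 1.29, beside a median of -0.04 over all 10029 genes so chosen. The 18 pseudogenes together stood at 1104 CPM in control dOLCs and 1917 CPM in control vOLCs, a log2 ratio of 0.80 (0.76 to 0.83). The most abundant copies of the 15 pseudogenes past the fold stood at 7753 and 6308 CPM, a log2 ratio of -0.30 (-0.32 to -0.28). The remaining pseudogenes of the 18 have no copy in this set, so the sums are not matched gene for gene. Within MOL2a, MOL5/6a and MOL5/6b, the clusters with most control vOLCs, the copies were at 0.04, 0.10 and -0.06.

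The excess was present in every cluster and was not limited to mature cells. The summed pseudogene log2 ratio ran from 0.57 in MOL1 to 1.20 in MOL2b and MOL5/6a. In the OPC cluster of the same libraries (853 control dOLC and 121 control vOLC cells) the 18 pseudogenes went from 828.8 to 1393 CPM, a log2 ratio of 0.75, and 17 of 18 were above 0. The ectopic vOLCs had another cluster makeup, which their sums carry, with 40.9% of them in MOL5/6a, 38.1% in MOL5/6d, 5.23% in MOL2a and 1.91% in MOL5/6b. Set against the same control dOLCs, they were at 932.5 CPM in oligodendrocytes, with a median log2 ratio of 0.14 over the 18. The pattern therefore set the control vOLC library apart from both other libraries, and with 1 library each, the library and the origin of the cells cannot be told apart.

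**Figure D1:**
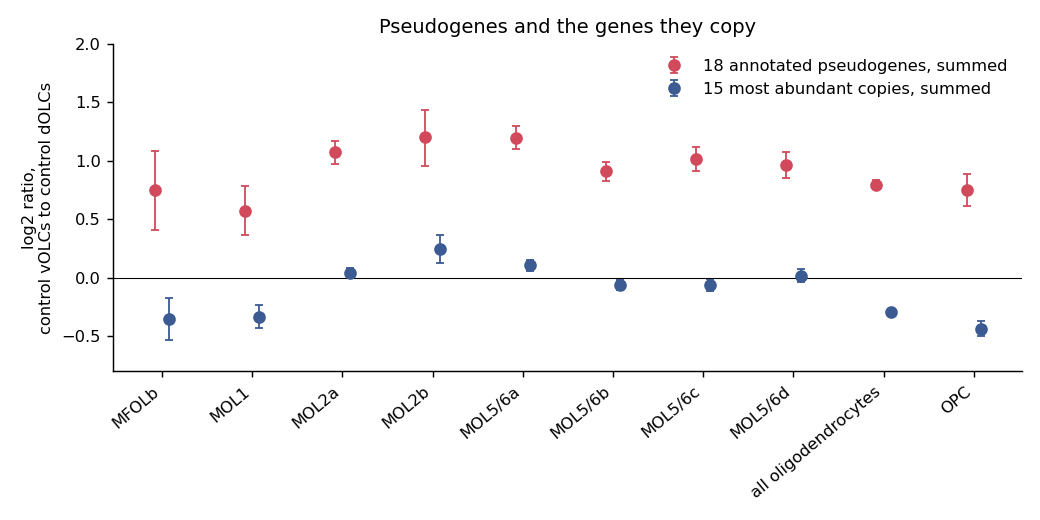
Log2 ratio of control vOLCs to control dOLCs for the summed UMIs of 18 annotated pseudogenes (red) and of 15 copies (blue). The 15 are the most abundant copies of the pseudogenes past the fold only. Values are given by cluster, over all oligodendrocytes and in the OPC cluster, with 95% counting intervals. Each pseudogene point is above 0, from 0.57 to 1.20 within clusters, while the copies lie between -0.36 in MFOLb and 0.25 in MOL2b and at -0.44 in OPCs.

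Near copies were also frequent among the higher genes as a whole. Of the 150 genes at least 1.5 times higher in control vOLCs, 146 were matched in the annotation, and 66 of these (45.2%) had a near copy, the 15 pseudogenes included, beside 1015 of 5322 matched genes tested (19.1%). Of the 66, 29 passed the filter through the control vOLCs alone. Among matched genes that passed in both libraries, 37 of the 83 higher ones (44.6%) had a near copy, beside 884 of 4453 (19.9%). Among the 46 genes at least 1.5 times lower, 11 (23.9%) had one. For 51 of the higher genes a copy was also counted in the table. Their median log2 ratio was 1.25. For 21 of the 51 the copy had at least 10 times their UMIs in control dOLCs, so a sum over gene and copies would follow the copy. Gm8797, a copy of the ubiquitin gene Ubb, had 292 and 252 UMIs (log2 ratio 1.98) beside 33180 and 6547 UMIs for Ubb (-0.15). Gm4950, a copy of the proteasome gene Psmb3, had 109 and 96 UMIs (2.01) beside 4442 and 908 UMIs for Psmb3 (-0.10), and Rpl7a-ps5 105 and 90 UMIs (1.97) beside 7364 and 1364 UMIs for Rpl7a (-0.24).

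In other families the more abundant member was itself higher. Gm10020 and its parent Rpl15, a ribosomal protein gene, were at 1.95 and 0.63. Hist2h2aa1, a histone H2A gene, was at 1.90, and its most abundant copy Hist1h2al at 1.48. Pgk1, the glycolytic enzyme phosphoglycerate kinase, had 432 and 339 UMIs and a log2 ratio of 1.84, and its only counted copy had 13 UMIs in each library. Gm10116 (342 and 383 UMIs, log2 ratio 2.35) and Gm10094 (135 and 108 UMIs, 1.87) had no entry under those symbols and could not be placed.

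The control vOLC library was smaller, deeper per cell and differently made up. It held 1039 barcodes before the filter on cells, and the control dOLC library 6192, more than the number of cells that the methods state were loaded for a sample. The sources used here do not say how that library was made up. The summed cells held 19890137 UMIs in control dOLCs and 4356594 UMIs in control vOLCs. The median cell had 3635 UMIs and 1546 genes in control dOLCs, and 5314 UMIs and 1978 genes in control vOLCs, and the control vOLC median was the higher one in all 8 clusters. The share of mitochondrial UMIs was close, with medians of 6.96% and 6.92%. Scrublet, a doublet caller, marked 0 control dOLCs and 14 control vOLCs, too few for a working call, and no cell was removed for it. The barcodes of the 2 control libraries coincided in 6 oligodendrocytes.

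MOL5/6a and MOL2a took up more of the control vOLCs, and MOL5/6b, MOL5/6c and MOL5/6d more of the control dOLCs. MOL5/6a held 237 of 788 control vOLCs (30.1%, Clopper-Pearson 95% interval 26.9 to 33.4) and 333 of 4858 control dOLCs (6.86%, 6.16 to 7.60). MOL2a held 22.7% (19.8 to 25.8) of control vOLCs and 10.3% (9.41 to 11.1) of control dOLCs. MOL5/6b was the largest control dOLC cluster, at 40.1% (38.7 to 41.5) against 29.9% (26.8 to 33.3). MOL5/6c went from 19.1% to 6.73% and MOL5/6d from 11.7% to 4.44%. All MOL5/6 clusters together were closer, at 77.8% of control dOLCs and 71.2% of control vOLCs. MOL1 was at 4.98% and 4.32%, with overlapping intervals. MOL2b and MFOLb rested on 6 and 8 control vOLCs, so that values within these clusters are coarse. The clusters were built on the same genes that are compared here, so the shares and the expression values are not independent.

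**Figure D2:**
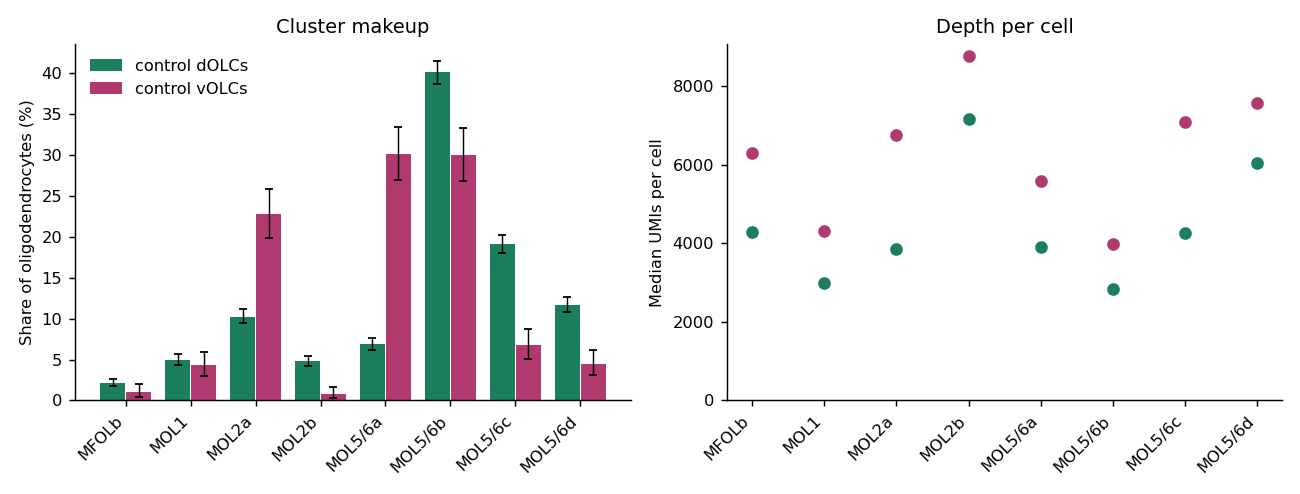
Left, share of oligodendrocytes in each cluster (bars, percent, with 95% Clopper-Pearson intervals), and right, median UMIs per cell in each cluster (points), for control dOLCs (green) and control vOLCs (purple). MOL5/6a is at 6.86% of control dOLCs and 30.1% of control vOLCs, and in every cluster the median UMI count of control vOLCs is the higher one.

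Most genes differed little. Of 5460 genes past the filter in the sums, 5264 (96.4%) were within a fold of 1.5, the median log2 ratio was -0.03, and the 5th and 95th percentiles were -0.40 and 0.43. Past the fold were 150 genes higher in control vOLCs (2.75%) and 46 lower (0.842%), and past a fold of 2 were 65 higher and 4 lower. Cells of the control vOLC library were deeper, and 872 genes passed the filter through that library alone, with 65 of the 150 among them. The part of depth in this was not tested. Only 15 genes passed through the control dOLCs alone, 9 of which were past the fold lower. Among the 4573 genes that passed in both, 85 were higher (1.86%) and 37 lower (0.809%).

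Part of the lower side moved with the cluster makeup. With each cluster given the same weight in both libraries (cluster-standardised CPM), 150 genes were at least 1.5 times higher (2.75%) and 16 lower (0.293%). Of the 150 genes higher in the sums, 122 (81.3%) were also higher after standardisation, whereas 12 of the 46 lower genes (26.1%) were also lower.

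**Figure D3:**
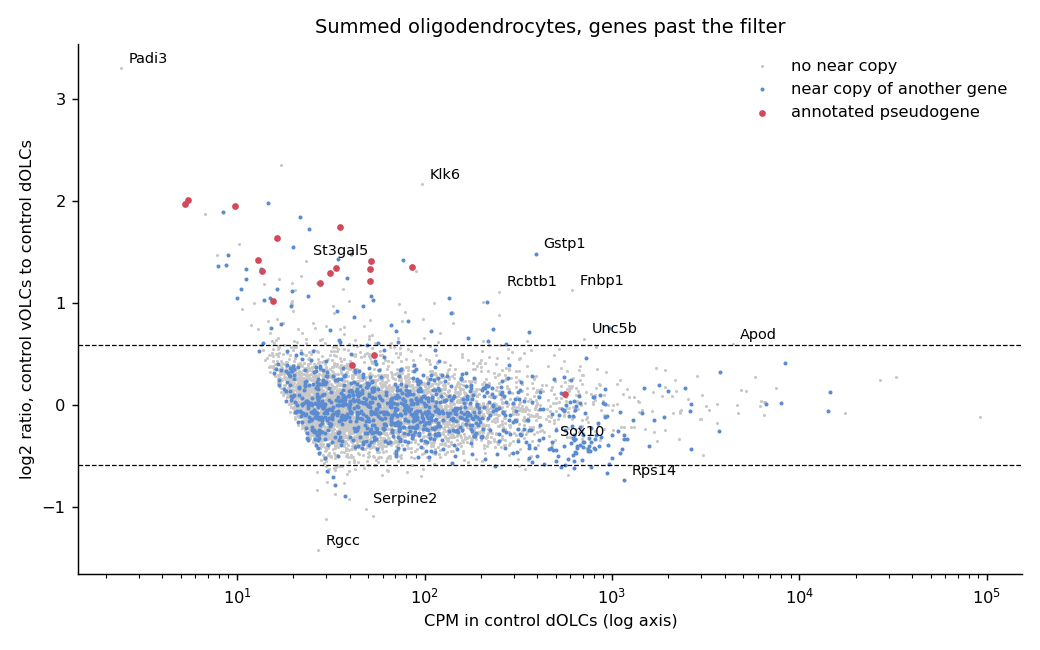
Log2 ratio of control vOLCs to control dOLCs for the 5460 genes past the filter, against the CPM in control dOLCs on a log axis, with near copies in blue, annotated pseudogenes in red and dashed lines at a fold of 1.5. Most points lie between the lines, the pseudogenes lie above 0, and Padi3 (3.31) and Klk6 (2.17) are among the labelled genes at the top.

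Only Padi3 and Klk6 among the 12 highest genes had no near copy and a place in the annotation. Padi3 (chr4:140785365-140810648, minus strand) encodes a peptidylarginine deiminase, an enzyme that turns arginine in proteins into citrulline. It had 48 UMIs (2.41 CPM) in control dOLCs and 104 UMIs (23.9 CPM) in control vOLCs, a log2 ratio of 3.31 (2.80 to 3.83), and 3.44 after standardisation. It was at 3.41 CPM in the ectopic vOLCs, and at 4.40 CPM in their MOL5/6a cells. The control vOLC level stood apart in the clusters with most control vOLCs: 1.98 against 27.3 CPM in MOL2a, 1.497 against 21.8 CPM in MOL5/6a and 2.03 against 26.1 CPM in MOL5/6b. In the 6 control vOLCs of MOL2b it had 0 UMIs, which allows up to 57.4 CPM, so no difference was detectable there. It also had 4 and 16 UMIs in the OPC cluster. Padi3 passed the filter through the control vOLCs alone, and in no single cluster, since its counts were small.

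Klk6 (chr7:43824499-43832030, plus strand), a secreted serine protease and a MOL2 marker, was higher in the sums and in 5 of the 7 clusters where it passed the filter. It had 1937 UMIs (97.4 CPM) in control dOLCs and 1906 UMIs (437.5 CPM) in control vOLCs, a log2 ratio of 2.17 (2.08 to 2.26), which became 1.34 after standardisation. In MOL2a, where it was most abundant, it went from 546.1 to 1451 CPM. It went from 17.2 to 54.0 CPM in MOL5/6a and from 24.9 to 76.1 CPM in MOL5/6b. The excess was not found everywhere: MOL5/6d was at 15.5 and 14.97 CPM, and MOL2b at 280.4 and 134.0 CPM, the latter on 7 UMIs. The ectopic vOLCs were at 110.4 CPM in the sum, with few cells in MOL2a, but at 1412 CPM within MOL2a (972 UMIs), close to the control vOLCs there, and at 35.2 CPM in MOL5/6a.

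Gstp1, Fnbp1 and Rcbtb1 were higher in all 8 clusters, although Rcbtb1 in MFOLb rests on 17 control vOLC UMIs (0.59, interval -0.24 to 1.34) and was within counting error there. These genes, like the others of this and the next paragraph, were picked out after their values were seen. Gstp1 (chr19:4035407-4037985, minus strand), a glutathione transferase that conjugates electrophiles to glutathione, had 7796 UMIs (392.0 CPM) in control dOLCs and 4784 UMIs (1098 CPM) in control vOLCs, a log2 ratio of 1.49 (1.43 to 1.54). Its cluster ratios ran from 1.13 to 1.87 and the ectopic vOLCs were at 573.6 CPM. Its near copy Gstp2 had 30 and 35 UMIs. Fnbp1 (chr2:31026206-31142008, minus strand), which encodes a membrane-curving protein of endocytosis, had 12232 and 5855 UMIs (615.0 and 1344 CPM), a log2 ratio of 1.13 (1.08 to 1.17), with clusters from 0.81 to 1.23. The ectopic vOLCs were at 590.1 CPM, and the OPC cluster gave -0.38. Rcbtb1 (chr14:59201209-59237265, plus strand) had 4970 and 2353 UMIs (249.9 and 540.1 CPM), a log2 ratio of 1.11 (1.04 to 1.18), with clusters from 0.59 to 1.28 and ectopic vOLCs at 259.1 CPM. Within MOL5/6a, control dOLCs, control vOLCs and ectopic vOLCs were at 495.6, 1520 and 523.4 CPM for Gstp1, at 599.6, 1314 and 573.3 CPM for Fnbp1 and at 202.1, 489.4 and 235.1 CPM for Rcbtb1, so that the ectopic level was again nearer to the control dOLCs for all 3.

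Less abundant genes showed differences of like size. St3gal5, the sialyltransferase that makes ganglioside GM3, went from 23.4 to 62.4 CPM (465 and 272 UMIs, log2 ratio 1.42). Cyb5r1, a cytochrome b5 reductase, went from 10.2 to 30.5 CPM (203 and 133 UMIs, 1.58). Nkain1, which interacts with the sodium pump, was at 20.4 and 44.5 CPM (1.13), and Ndn, an imprinted gene that encodes necdin, at 19.8 and 40.2 CPM (1.02). All 4 passed the filter through the control vOLCs alone. The ectopic vOLCs were at 17.8 CPM for St3gal5, 9.54 CPM for Cyb5r1, 20.7 CPM for Nkain1 and 34.5 CPM for Ndn, so that Ndn alone of the 4 was nearer to the control vOLCs there.

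**Figure D4:**
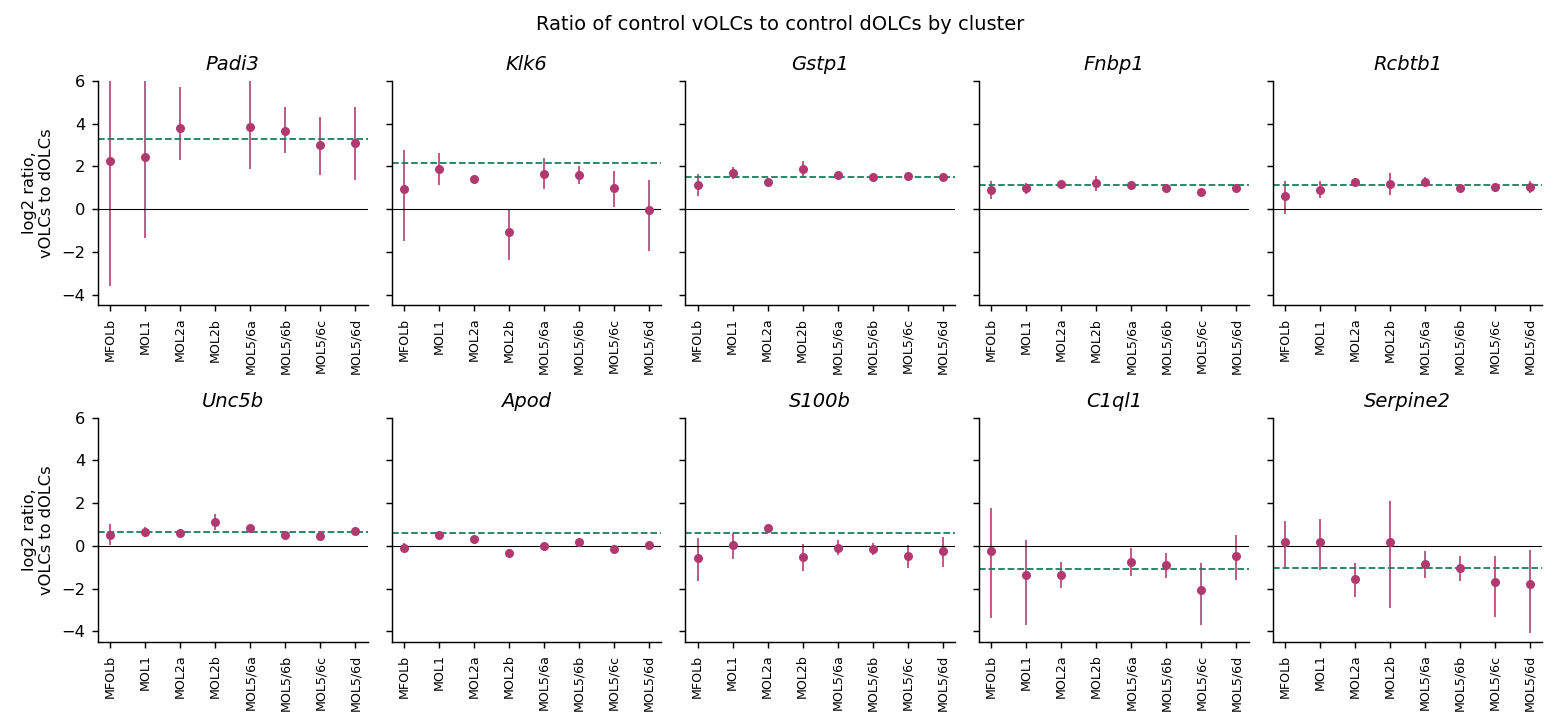
Log2 ratio of control vOLCs to control dOLCs in each cluster (points, with 95% counting intervals, some of them cut by the axis) and over all oligodendrocytes (dashed green line) for 10 genes, with no point where control vOLCs had 0 UMIs. Gstp1, Fnbp1, Rcbtb1 and Unc5b lie above 0 in all 8 clusters, whereas Apod and S100b lie around 0 in most clusters, below their summed ratios of 0.60 and 0.62.

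Several genes that were higher or lower in the sums were nearer 0 once clusters were weighted alike. Apod, a lipid carrier and MOL5/6 marker, was at 4422 CPM in control dOLCs and 6682 CPM in control vOLCs, a log2 ratio of 0.60, and 0.16 after standardisation, with clusters from -0.32 to 0.50. Pmp22, a membrane protein of myelin, was at 0.63 and then 0.24. S100b, a calcium-binding protein, was at 205.1 and 315.8 CPM, 0.62 and then 0.29, and within clusters it was higher in MOL2a (474.7 and 858.5 CPM) but had a median of -0.19 over the 8.

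Ribosomal protein genes formed the largest such group. Of 86, 83 passed the filter, with a median log2 ratio of -0.39, and -0.06 after standardisation. Summed, they were at 52130 CPM in control dOLCs and 41020 CPM in control vOLCs. The sums were close within 5 clusters: 32600 and 32110 CPM in MOL2a, 35580 and 37780 CPM in MOL5/6a, 39140 and 37790 CPM in MOL5/6b, 66880 and 65080 CPM in MOL5/6c, and 70250 and 72370 CPM in MOL5/6d. They differed more in the other 3, at 44720 and 33940 CPM in MFOLb (-0.40), 49730 and 37870 CPM in MOL1 (-0.39) and 64200 and 73170 CPM in MOL2b (0.19). The clusters in which ribosomal protein genes were most abundant, MOL5/6c, MOL5/6d and MOL2b, each held a smaller share of the control vOLCs. Past the fold lower, as were 0.842% of all genes tested, were 7 of the 83, Rpl34, Rpl32, Rps9, Rps19, Rps23, Rps7 and Rps14, from -0.59 (Rps7) to -0.74 (Rps14), and none of the 83 was past it in this direction after standardisation. Rpl6l (1.41) and Rpl15 (0.63) were past the fold higher. The annotation calls Rpl6l a processed pseudogene.

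Of the 13 mitochondrially encoded genes, the 4 past the fold were higher in control vOLCs, as were 2.75% of all genes tested: mt-Atp8 at 1.01 (205.5 and 413.4 CPM), mt-Nd3 at 0.76 (958.4 and 1620 CPM), mt-Nd4l at 0.75 and mt-Nd6, which passed the filter through the control vOLCs alone, at 0.71. The first encodes a subunit of ATP synthase and the others subunits of complex I. The abundant mt-Atp6 and mt-Co1 were at 0.12 and 0.02, and the whole set at 64480 and 67420 CPM. Mitochondrial genes are cut from long shared transcripts and mt-Atp8 overlaps mt-Atp6, so counts of these neighbours can be split in counting.

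The genes lower in control vOLCs included several that OPCs express more than oligodendrocytes do. The 12 lowest were led by Rgcc, a cell cycle regulator, at 27.1 CPM (539 UMIs) in control dOLCs and 10.1 CPM (44 UMIs) in control vOLCs, a log2 ratio of -1.42 (-1.90 to -0.98). Zfhx4, a zinc finger homeobox gene, went from 29.9 to 13.8 CPM (-1.12), with 9.69 CPM in the ectopic vOLCs. C1ql1, a secreted C1q-like protein used as an OPC marker, went from 53.3 to 25.0 CPM (1061 and 109 UMIs, -1.09, interval -1.39 to -0.81) and was at 25.6 CPM in the ectopic vOLCs. It was lower in the 6 clusters where it passed the filter. Serpine2, a protease inhibitor, went from 48.8 to 24.1 CPM (-1.02), and Bcan, a proteoglycan of the perineuronal matrix, from 39.7 to 20.9 CPM (-0.93). For Serpine2 and Bcan, the ectopic vOLCs (27.9 and 20.5 CPM) were close to the control vOLCs. For Rgcc they were nearer to the control dOLCs, with a log2 ratio of -0.46 against these.

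The rest of the 12 were Taf10 (-0.89, and -0.29 after standardisation), the transcription regulators Tsc22d1 (-0.88) and Foxo1 (-0.84), the splicing factor Snrpa1 (-0.79), Srgap1 (-0.77), the adhesion molecule Cntn1 (-0.76) and the ribosomal protein gene Rps14 (-0.74). Of the 12, 7 passed the filter through the control dOLCs alone, a side that favours genes lower in control vOLCs. Set against control dOLCs, the ectopic vOLCs were at 0.10 for Taf10, -0.44 for Tsc22d1 and -0.04 for Snrpa1. They were nearer to the control vOLCs for Foxo1 (-0.67), Srgap1 (-0.74) and Cntn1 (-0.87).

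In the OPC cluster C1ql1, Serpine2 and Bcan were not lower in the control vOLC library. C1ql1 was at 2474 CPM in control dOLC OPCs and 3103 CPM in control vOLC OPCs, Serpine2 at 2389 and 2810 CPM, and Bcan at 1714 and 2077 CPM. Of the 28 tested genes that were at least 10 times higher in OPCs than in oligodendrocytes of the control dOLCs, 20 were below 0 in oligodendrocytes, 7 were past the fold lower and 0 higher, with a median log2 ratio of -0.36. Over all 5460 genes tested 3025 were below 0 and 46 (0.842%) past the fold lower, with a median of -0.03. The median of the 28 was -0.31 after standardisation, -0.47 in the ectopic vOLCs against the same control dOLCs, and 0.32 within the OPC cluster. These 28 were chosen on the control dOLC library, which is also the denominator. Rgcc, a member of the 28, passed the filter through the control dOLCs alone. That side favours genes lower in control vOLCs, with 9 of all 15 such genes past the fold lower. The 28 were not split by the side of the filter.

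OPC markers as a list moved with this only in part. The 12 OPC markers summed to 2041 CPM in control dOLCs and 2072 CPM in control vOLCs, almost all of it Olig1 (1841 and 1957 CPM), which oligodendrocytes express too. Only 3 of the 12 passed the filter on low values. Among the defining OPC genes that did not, Pdgfra was at 16.8 and 9.87 CPM, Cspg4 at 9.35 and 4.59 CPM and Vcan at 10.8 and 3.21 CPM. All 3 were lower in control vOLCs, on low counts. The reverse was seen for myelin genes in the OPC cluster, where 19 of 24 were lower in the control vOLC library, 13 past the fold, with a median of -0.76. Of all 5448 tested genes with a UMI in both libraries in that cluster, 3106 were lower, 929 (17.1%) past the fold, with a median of -0.07. Summed, these myelin genes were at 26250 CPM in the OPC cluster of control dOLCs and 19430 CPM in that of control vOLCs. C1ql1 in oligodendrocytes was at 2.16% of its OPC level in control dOLCs and 0.806% in control vOLCs. The part of OPC RNA in the lower values of control vOLC oligodendrocytes was not tested.

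Gene lists of oligodendrocyte function moved little. Myelin genes (24 of 24 tested) had a median log2 ratio of 0.01, with Mbp at -0.02, Cnp at 0.04, Cldn11 at 0.14 and, past the fold, Omg at 0.91. Omg, the oligodendrocyte myelin glycoprotein that inhibits neurite outgrowth, went from 139.5 to 262.4 CPM and was higher in 7 of 8 clusters. Among axon guidance genes (14 of 38 tested, median 0.21, and 0.27 after standardisation) 3 were past the fold, all higher, where 2.75% of all genes tested were. Besides Omg they were Unc5b, a netrin receptor, at 712.7 and 1117 CPM (0.65, with clusters from 0.45 to 1.13 and ectopic vOLCs at 608.5 CPM), and Nrp2, a semaphorin receptor, at 17.7 and 30.8 CPM (0.80), which passed the filter through the control vOLCs alone. Rtn4, which encodes Nogo, and the ephrin Efnb3 were at -0.05 and 0.11.

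Among lipid genes only single members were past the fold, all higher, as were 2.75% of all genes tested. Cholesterol synthesis genes (20 of 23 tested) had a median of 0.16, and 0.02 after standardisation. Idi1, an isomerase of isoprenoid synthesis, was past the fold at 0.61 in the sums, but no gene of the list was past it after standardisation. Fatty acid genes (20 of 26 tested, median 0.03) had none past it, the highest being Elovl7, an elongase, at 339.1 and 483.4 CPM (0.51). Sphingolipid genes (20 of 26 tested, median 0.15) had 1, Sgms1, a sphingomyelin synthase, at 21.8 and 52.3 CPM (434 and 228 UMIs, 1.26, interval 1.02 to 1.497), which passed the filter through the control vOLCs alone. Sgms1 was at 22.2 CPM in the ectopic vOLCs. St3gal5, described above, was not on this list.

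The microtubule list lay below the adhesion and channel lists. Microtubule genes (22 of 34 tested) had a median of -0.21, and -0.16 after standardisation, with none past the fold, 6 above 0 and the abundant Stmn1 at -0.43 and Tubb4a at 0.14. Axoglial adhesion genes (19 of 26 tested) had a median of -0.01 and 2 past the fold lower, Bcan and Cntn1 (0.842% of all genes tested were). After standardisation Bcan stayed past the fold (-0.71) and Cntn1 did not (-0.49). The abundant Mag was at 0.00, Mog at 0.25 and Hapln2, a link protein of nodes of Ranvier, at 0.38. Ion channels and transporters (19 of 42 members tested) had a median of -0.09, with the abundant Hcn2, a pacemaker channel, at 0.21 and Kcna1, a potassium channel, at -0.31. Of the 10 astrocyte markers 6 were tested, with a median of -0.42, and -0.20 after standardisation, and none was above 0 in the sums. Among them Aldoc, a glycolytic enzyme, was at 134.0 and 101.7 CPM (-0.40) and the glutamate transporter Slc1a2 at 97.03 and 94.8 CPM (-0.03).

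Signalling, stress and immune lists had few or no members past the fold. Growth factor and morphogen signalling genes (13 of 50 tested) had a median of -0.05 and immediate early genes (9 of 30) of 0.01. Heat shock genes (11 of 14) had a median of -0.05, and antigen presentation and reactive genes (8 of 29) of 0.18, and 0.06 after standardisation, with Il33, an alarmin and MOL5/6 marker, at -0.33. None of these was past the fold in the sums. Glycolysis genes (15 of 21, median 0.12) had 1 past it, Pgk1, which was higher, as were 2.75% of all genes tested, whereas Gapdh and Aldoa were at -0.23 and 0.15.

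Most patterning genes of the progenitors were below the filter in both libraries. Of 16 dorsal genes none passed the filter, and together they were at 21.4 CPM in control dOLCs and 19.7 CPM in control vOLCs, a log2 ratio of -0.12 (-0.47 to 0.22). Lhx2, a LIM homeobox gene, was at 4.27 and 4.13 CPM. Of 23 ventral genes 2 passed, both of which mature oligodendrocytes use: Nkx6-2 at 659.7 and 639.9 CPM and Nkx2-2 at 27.9 and 28.7 CPM. The ventral genes together were at 719.4 and 697.8 CPM, a log2 ratio of -0.04 (-0.10 to 0.01), so that neither sum differed beyond counting error. In both libraries most of the ventral sum was Nkx6-2. Within clusters the ventral sum was higher in control vOLCs in MOL2a, at 658.5 and 720.6 CPM (0.13, interval 0.0038 to 0.26), and in MOL5/6a, at 647.5 and 730.3 CPM (0.17, interval 0.04 to 0.31), and was at 658.2 and 625.2 CPM in MOL5/6b (-0.07, interval -0.20 to 0.05). The median of the 2 that passed was 0.00 in the sums and 0.11 after standardisation.

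Subtype markers other than Klk6 differed by less. The MOL5/6 markers (11 of 12 tested) had a median of 0.27, and 0.17 after standardisation, with Ptgds, a prostaglandin synthase, at 26800 and 31850 CPM (0.25) and Car2 at 0.27. Past the fold higher, as were 2.75% of all genes tested, were Apod, S100b and Pmp22, as above. Of the MOL2 markers (4 of 7 tested), Klk6 and Mgst3 (39.3 and 59.5 CPM, 0.60) were past it in the same direction, and Anxa5 was at 0.12. The MOL1 and newly myelinating markers (5 of 12 tested) had a median of -0.07, with Opalin at -0.24 and Mobp at -0.08.

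**Figure D5:**
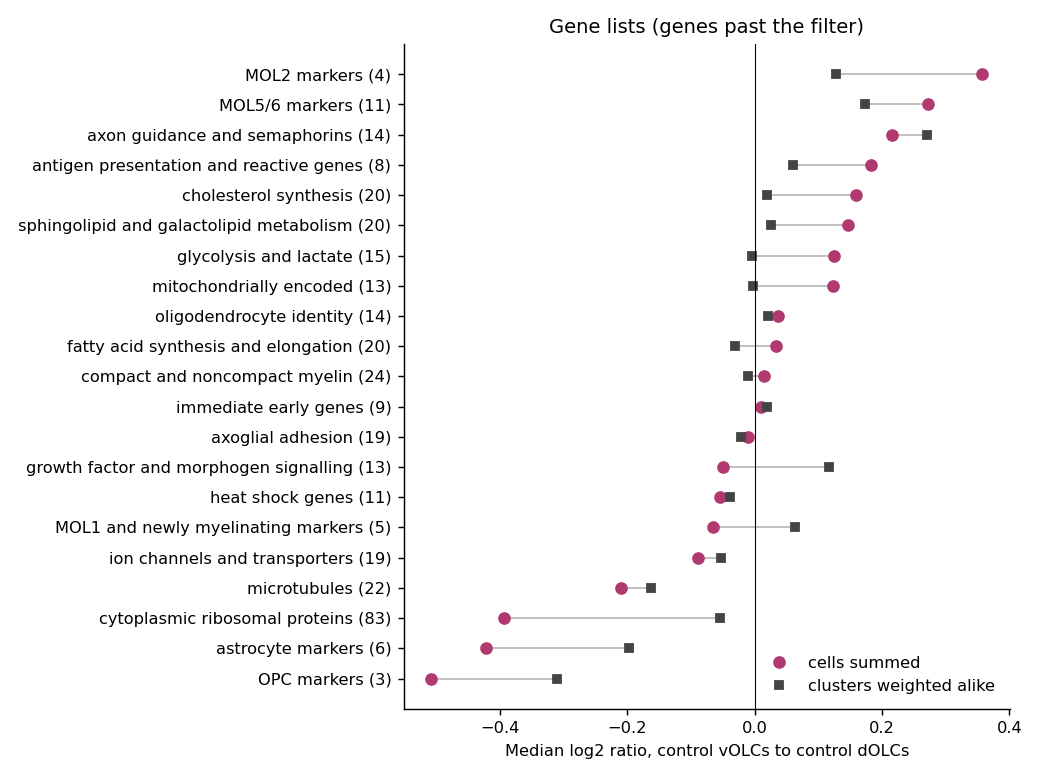
Median log2 ratio of control vOLCs to control dOLCs of each gene list with 3 or more members past the filter (their number in parentheses), for cells summed (purple circles) and with clusters weighted alike (grey squares). The summed medians run from -0.51 for the OPC markers (3 genes) to 0.36 for the MOL2 markers (4 genes), and the ribosomal protein genes move from -0.39 to -0.06 once clusters are weighted alike.

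Within single clusters more genes were past the fold, most of all where few cells were summed. In MOL2a, 348 of 5916 genes (5.88%) were at least 1.5 times higher in control vOLCs and 223 (3.77%) lower. In MOL5/6a, 323 of 5162 (6.26%) were higher and 154 (2.98%) lower, and in MOL5/6b 202 of 4669 (4.33%) and 44 (0.942%). In MOL2b, with 6 control vOLCs, 656 of 4302 were higher and 1315 lower, and 280 genes had 0 UMIs in control vOLCs. Of 3959 genes past the filter in at least 6 clusters, 173 were higher and 161 lower in every such cluster. The clusters of a library share its mice, sort and sequencing and are not replicates.

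The genes that stood highest across clusters were again near copies of ribosomal protein genes. Among those higher in every cluster in which they passed, the 10 with the highest median were Rpl9-ps6, Gm10073, Rpl10-ps3, Rpl23a-ps3, Rpl13-ps3, Gm9493, Rpl27-ps3, Rps27rt, Gm9843 and Rpl6l, with medians from 2.03 (Rpl9-ps6) to 1.65 (Rpl6l). The 10 with the lowest median among genes lower in every cluster were C1ql1 (-0.90), Mmgt1, Stat3, Lars, Neu1, Cspg5, As3mt, Ago3, Ppp1r12a and Birc6 (-0.55). Stat3, a transcription factor of cytokine signalling, went from 47.7 to 31.0 CPM in the sums (-0.62). Cspg5, a proteoglycan of OPCs and neurons, went from 86.0 to 57.2 CPM (-0.59). Neu1, the lysosomal sialidase, was lower within 7 clusters with a median of -0.66, yet at 51.3 and 51.7 CPM in the sums.

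At the upper end of most clusters stood predicted genes and copies of ribosomal protein genes. Gm10116 was among the highest pair of genes in MOL2a (2.31), MOL5/6b (2.29), MOL5/6c (2.87) and MOL5/6d (2.43), beside Gm10250 in MOL2a (2.83), RP23-407N2.2 in MOL5/6b (2.23), Gm6133 in MOL5/6c (2.41) and Gm9803 in MOL5/6d (2.24). Rpl9-ps6 and Rpl13-ps3 led MOL5/6a (2.79 and 2.78), Rpl9-ps6 and Rpl27-ps3 led MOL2b, and Gm11808 (2.097) and Klk6 (1.89) led MOL1. In MFOLb the highest were Rapgef3, a cAMP-activated exchange factor, with 39 and 18 UMIs (2.16), and Vegfa, the endothelial growth factor, with 39 and 17 UMIs (2.08).

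On the lower side, Marcks, an actin-binding substrate of protein kinase C, had 55 and 4 UMIs in MOL2a (-3.00) beside Zfhx4 (69 and 10 UMIs, -2.005). Bcan (46 and 15 UMIs, -1.61) and Rnf216 (60 and 20 UMIs, -1.58) were lowest in MOL5/6a, and Tcf3 (211 and 15 UMIs, -1.19) and Gpr37l1 (270 and 20 UMIs, -1.14) in MOL5/6b. In the other 5 clusters the lowest pair with a finite ratio each rested on 1 UMI in control vOLCs, and these ratios carry wide intervals. The pairs were Ndufv2 and Adh5 in MFOLb, 1190005I06Rik and Sox2 in MOL1, Ergic3 and Dnaja1 in MOL2b, Metap1d and Cyp2j12 in MOL5/6c, and Ppm1l and Cwc25 in MOL5/6d. Genes past the filter with no UMI in control vOLCs have no finite ratio and were left out: 3 in MFOLb, 280 in MOL2b, 2 in MOL5/6c and 6 in MOL5/6d. For Sox2, a transcription factor of neural progenitors, with 53 UMIs and 1 UMI in MOL1, the log2 ratio was -3.28 (-8.61 to -0.74).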

How the data were processed

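Single-cell RNA-seq (Chromium 3′ v2) was deposited as 1 table of UMI counts, 27998 genes by 10081 barcodes, with a cell annotation. Per the labels, the authors mapped reads to mm10 with Cell Ranger 2.1.1 (the methods name another release), kept cells with 200 to 3000 genes and at most 15% mitochondrial counts, and clustered them with Seurat. That filter, applied here, kept the same number of cells (9291). The deposited counts were not normalized. The other samples of the series were not used here, and a few genes are not reported here.

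Counts were summed per library and cluster and scaled to CPM (Python 3.11.15, numpy 2.4.6, scipy 1.17.1). Genes needed 50 UMIs in both control libraries together and a UMI in 10% of the cells of one. With 1 library a side there was no test: log2 ratios carry 95% conditional exact binomial intervals, shares Clopper-Pearson intervals, and a gene was counted past a fold of 1.5. The cluster-standardised ratio weights each cluster by the mean of its shares in both libraries. The summing and intervals were tested on simulated data. Near copies were found with BLAST+ 2.17.0 among GENCODE M21 transcripts (26646 of 27998 symbols matched). Doublets were scored with Scrublet (scanpy 1.11.5). Alternatives covered normalization (edgeR 4.0.16 TMM factors, median-of-ratios factors), filters, depth, doublets, mitochondrial limit and clusters included.

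Named genes were the 12 highest and 12 lowest in the sums and the 2 highest and 2 lowest finite ratios per cluster. Also named were the 10 highest and 10 lowest cluster medians among genes of 1 sign in at least 6 clusters. From each list, the members highest in control dOLCs and those past the fold were named, of which the text gives examples. The comparison, members and lists were chosen with earlier results of these data known.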

Additional observations from a re-analysis of the deposited data

How the results depend on the processing

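No paired analysis was possible because each side was 1 library, so the groups shared fewer than 2 replicate numbers. Of the 150 genes higher in control vOLCs and the 46 lower, the counts became 4322 and 1326 with no filter beyond 1 UMI, 274 and 250 with each cell thinned to 1000 UMIs, and 46 and 578 with ectopic vOLCs in place of control vOLCs. The lower count was 16 with cluster-standardised values and 71 with a mitochondrial limit of 10%. With a UMI required in 10% of the cells of both libraries, a setting chosen after seeing the data, the higher count was 85. The thinned and unfiltered counts rest on fewer UMIs per gene; the cause of the other shifts was not tested. TMM factors gave 161 genes higher and, like the median-of-ratios factors, moved the median of all genes by 0.015. Of 451 ratios of named genes under the alternatives, 388 stayed within their interval and 6 changed sign. Among genes past the fold the sign changed for Taf10 alone, at 0.10 with ectopic vOLCs. The other sign changes were As3mt, at 0.01 with ectopic vOLCs, and Neu1, from 0.0088 to between -0.24 and -0.0064 in 4 settings. List medians changed sign in 25 of 294 values.

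With all kept cells as the total, the control dOLC shares were 4.17% for MOL1, 8.58% for MOL2a, 4.05% for MOL2b, 5.74% for MOL5/6a, 33.5% for MOL5/6b, 15.99% for MOL5/6c and 9.80% for MOL5/6d, and the control vOLC shares 19.4% for MOL2a, 25.6% for MOL5/6a and 25.5% for MOL5/6b. With the mitochondrial limit at 10%, control dOLC shares were 4.28% for MOL1, 5.78% for MOL2b, 7.80% for MOL5/6a, 33.7% for MOL5/6b, 21.8% for MOL5/6c and 14.0% for MOL5/6d, and control vOLC shares 33.6% for MOL5/6a and 24.7% for MOL5/6b. The 788 control vOLCs limit what can be seen of genes under about 50 UMIs.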
